A study of Arabidopsis thaliana with 8 samples.

Results

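The question addressed here is how the transcript response of the Arabidopsis inflorescence stem to SND2 overexpression differed between plants of 4 and 8 weeks. SND2 (AT4G28500, NAC073) is a NAC transcription factor gene that is expressed in stem fibres. SND2-OV(A) is a single homozygous transgenic line in the Col-0 background, in which a strong viral promoter drives SND2 in most cell types, so that much of the sampled tissue does not normally express it. The lower part of the primary inflorescence stem of the line was compared with that of wild type Col-0 of the same age on the same 2-colour array. All 8 arrays of the series were used. There were 4 arrays at each age, from 3 biological replicates, because replicate 1 was hybridized in both dye orientations and its 2 arrays were averaged. Replicate 2 had the transgenic sample in Cy3, and replicate 3 had it in Cy5, at either age. Each value is a log2 ratio of the line over the wild type, so 1 unit is a 2-fold change, and the age difference is the 8-week mean ratio minus the 4-week mean ratio. A ratio does not give the level of a transcript in either plant, and an age difference can come from the line, the wild type or both.

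The experiments at both ages also differed in ways other than age. By the study's methods the 8-week plants were selected on hygromycin and the 4-week plants were not, although the sample labels state hygromycin for all, and fewer plants were pooled per replicate at 8 weeks. The study describes one length of lower stem for the RNA, and its 4-week stems were little taller than that length. At 4 weeks the sample was therefore most of a young stem, and at 8 weeks the base of an older one. Age, selection, pool size and the part of the stem sampled cannot be told apart. Values were available for 37685 probes on every array. Array medians ranged from -0.11 to 0.06, and the SD over probes was 0.31 to 0.60 on 7 arrays and 1.01 on the Cy5 array of 8-week replicate 1 (named by the dye of the transgenic sample). Across probes, the Pearson correlation between arrays of different ages was -0.07 to 0.20 in the same dye orientation and -0.14 to 0.06 in the opposite one, over 8 pairs of arrays each. Arrays of one age correlated about as weakly, at 0.098 to 0.28 over 4 pairs in the same orientation and -0.22 to 0.088 over 8 pairs in the opposite one, and the dye-swapped arrays of replicate 1 at 0.062 for 4 weeks and 0.088 for 8 weeks. A gene name was known for 7628 probes. For 7440 of them it came from the array annotation, and for the other 188 from the study's lists of differential genes at either age, so that a gene named in this second way was already known to differ at the age of its list.

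Secondary walls are the thick inner walls of fibres and vessels, made of cellulose, xylan and lignin. In Arabidopsis they are laid down in the interfascicular fibres as the stem stops elongating. A group of NAC factors, with SND1 and NST1 as the upper switches, turns on MYB factors and through them the cellulose synthases CESA4, CESA7 and CESA8 and the enzymes of xylan and lignin. SND2 acts below SND1 in this network.

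The SND2 probe itself differed between the ages. Its log2 ratios were 2.97, 2.75 and 3.37 at 4 weeks and 7.25, 5.23 and 7.60 at 8 weeks. Every 8-week replicate lay above every 4-week replicate, with means of 3.03 ± 0.32 and 6.69 ± 1.28 (SD, n = 3) and a difference of 3.66 (95% interval 2.20 to 5.12). The study notes a saturated signal for this probe at 8 weeks. No intensity was available to check the probe at 4 weeks. The comparison of ages was therefore also a comparison of different measured excesses of the SND2 transcript over wild type.

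No probe passed a test of the age difference. In one limma fit of the 6 ratios, 0 of 37685 probes (0%) had an adjusted p under 0.05 with a change over 1.5-fold, with a smallest adjusted p of 0.9999. Without adjustment, 603 probes (1.6%) had a p under 0.05, or 843 (2.24%) with the replicate number as a block and 1256 (3.33%) with all 8 arrays and a dye term, and neither of these fits called a probe. The count was 1919 with array weights and 0 with a spread trended on the mean absolute ratio and fitted robustly, which called none either. The median age difference over all probes was -0.02, and the 95% interval reached a median of 0.47 to either side, a 1.38-fold change. The interval lay within 1.5-fold on either side for 17383 probes (46.1%), so that only for these did the fit bound the difference at that size. Probes were further described by the order of their replicates, with no test. The response of 127 probes (0.337% of all) was higher at 8 weeks, with every 8-week ratio above every 4-week ratio and a difference of at least 1.5-fold, and that of 311 probes (0.825%) was lower at 8 weeks by the same rule. With each array centred on its median these counts were 203 and 254, so the balance of higher to lower depended on the centring. In the lower class, 85 of 311 probes (27.3%) were more than 4-fold below wild type on the wide Cy5 array of 8-week replicate 1, against 1.68% of all probes. When replicate 1 was read from its Cy3 array alone, the counts were 126 and 271, and 76 and 166 of the probes described above were among them.

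**Figure D1:**
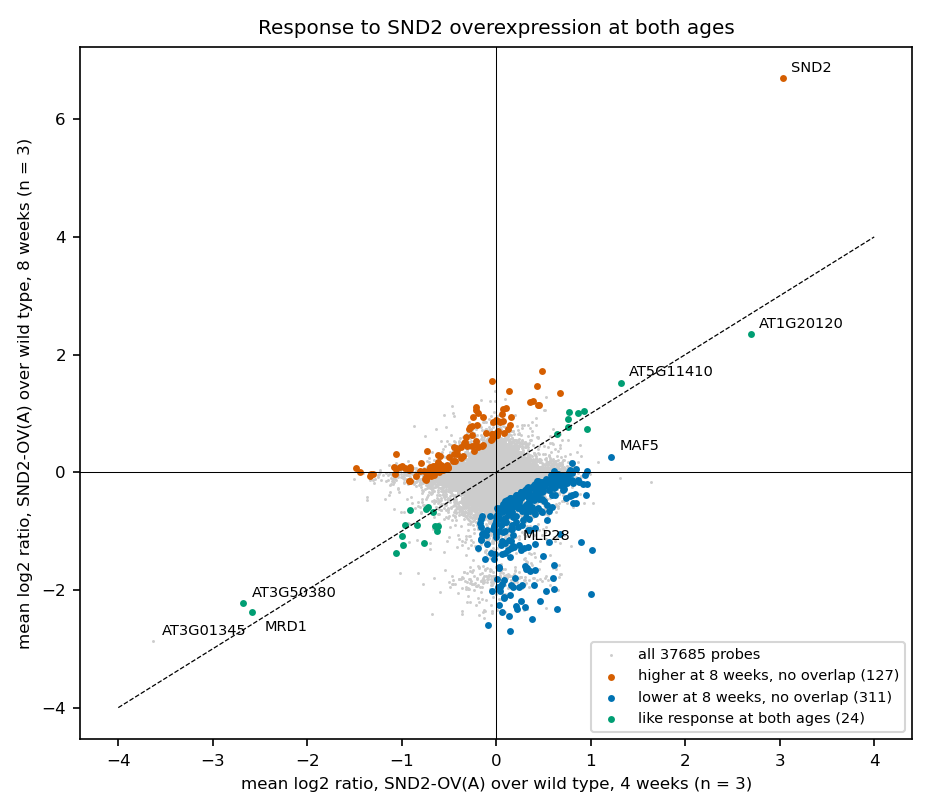
Mean log2 ratio of SND2-OV(A) over wild type at 4 weeks (x axis) against 8 weeks (y axis), each the mean of 3 replicates, for all 37685 probes. The dashed line marks equal ratios, coloured points are the 127 probes higher at 8 weeks, the 311 lower at 8 weeks and the 24 with a like response, and SND2 stands apart at 3.03 and 6.69.

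Few of the probes that stood apart from wild type at one age did so at the other, though more than the share over all probes. At 4 weeks, 133 probes were above wild type in all 3 replicates with a mean of at least 1.5-fold (0.353%) and 204 were below (0.541%). At 8 weeks the counts were 105 (0.279%) and 648 (1.72%). The probes above wild type at both ages numbered 11. They are 8.27% of those above at 4 weeks (against 0.279% of all probes) and 10.5% of those above at 8 weeks (against 0.353%). Those below at both ages numbered 19, or 9.31% of the 4-week set (against 1.72% of all probes) and 2.93% of the 8-week set (against 0.541%). A further 4 probes were above at 4 weeks and below at 8 weeks, and 0 were below at 4 weeks and above at 8 weeks. These 4 are 3.01% of those above at 4 weeks (against 1.72% of all probes) and 0.617% of those below at 8 weeks (against 0.353%). Across all probes the mean ratios of the ages had a Pearson correlation of 0.06 and a Spearman correlation of 0.08, a description over probes that share arrays, in which those of one age also correlated weakly.

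The study's lists of differential genes were each chosen within 1 age, so the values of the other age took no part in their choice. The 4-week list holds 21 probes above and 24 below wild type. At 8 weeks, 18 of the 21 lay above wild type (85.7%, against 38% of all probes), 14 did so in all 3 replicates (66.7%, against 7.73%), and their median ratio was 0.55. Of the 24 below, 15 lay below at 8 weeks (62.5%, against 62%), with a median of -0.08. Read the other way, the 8-week list holds 223 probes. Of its 155 probes above wild type, 79 were above at 4 weeks (51%, against 49.1% of all) and 32 in all 3 replicates (20.6%, against 8.91%), with a median of 0.01. Of its 68 below, 51 were below at 4 weeks (75%, against 50.9%) and 17 in all 3 replicates (25%, against 7.98%), with a median of -0.11. The lists share 16 probes, of which 14 lay on the same side of wild type at both ages.

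A like response at both ages was seen for 24 probes (0.0637% of all), which had one sign in all 6 ratios, a mean of at least 1.5-fold at each age and an age difference under 1.5-fold. Of these, 17 have a gene name, 5 by the annotation and 12 through the study's lists, and 1 of the 17 carries conflicting names and is not described. Most of the named genes had been listed by the study at both ages, AT1G20120 and AT3G50380 of the annotated ones among them. The strongest was AT1G20120, a gene for a GDSL-type lipase, with 2.97, 2.91 and 2.21 at 4 weeks and 2.18, 3.15 and 1.71 at 8 weeks. The ages overlapped, and the difference was -0.35 (95% interval -1.31 to 0.61). MRD1 (AT1G53480), named for its decrease in a methionine over-accumulating mutant, stood at -2.42, -2.76 and -2.57 at 4 weeks and at -2.00, -2.38 and -2.74 at 8 weeks. Its difference was 0.21 (-0.32 to 0.74). HEI10 (AT1G53490), a RING-type ligase of meiotic crossover formation, is the next coding gene to MRD1 in the RefSeq annotation and was also below wild type, at -0.66, -0.66 and -0.63 at 4 weeks and -0.83, -0.10 and -1.80 at 8 weeks. AT3G50380, which encodes a vacuolar protein sorting-associated protein, had -2.68, -2.53 and -2.81 at 4 weeks and -1.86, -2.69 and -2.10 at 8 weeks. AT3G01345 was lower still, with -3.33, -4.38 and -3.18 at 4 weeks and -2.35, -3.28 and -2.99 at 8 weeks, but its difference of 0.76 (-0.17 to 1.68) exceeded 1.5-fold and kept it out of the class. AT1G20120, MRD1, AT3G50380 and AT3G01345 thus stood more than 4-fold from wild type on average at both ages, on the side they had at the other age. With a single transgenic line, a response to SND2 and a fixed difference of that line from wild type cannot be told apart.

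The other genes of the like class stood closer to wild type. GMI1 (AT5G24280), a gene induced by DNA damage that encodes a protein related to structural maintenance of chromosomes, had 0.95, 0.91 and 0.94 at 4 weeks and 1.14, 1.16 and 0.82 at 8 weeks. Its difference of 0.11 (-0.25 to 0.46) had an interval within 1.5-fold, as was the case for 3 of the 24 probes, and GMI1 was the one of these with an undisputed name. NAC103 (AT5G64060), a NAC factor of the unfolded protein response, had 1.08, 0.62 and 0.59 at 4 weeks and 0.98, 1.05 and 1.03 at 8 weeks. AT5G11410, a protein kinase gene, was at 1.47, 1.46 and 1.03 and then at 1.90, 1.51 and 1.16. HO3 (AT1G69720), a haem oxygenase gene, was at 0.88, 1.06 and 0.32 and then at 1.25, 0.83 and 0.64. AT3G55920, a cyclophilin-type isomerase gene, had means of 0.96 and 0.73, and AT3G25597 had 0.86 and 1.00. The carbohydrate kinase gene AT5G43910 had 0.59, 0.75 and 0.58 and then 0.44, 0.23 and 1.29, so that its 8-week mean of 0.65 rests on replicate 3. Below wild type were RPL15 (AT3G25920), a plastid ribosomal protein gene, with means of -0.63 and -1.00, and AT5G03090 with -0.62 and -0.92. The remaining 3, AT5G16960, AT5G15880 and AT3G26920, were not steady at either age. Each owed its mean at either age to 1 replicate, such as AT5G16960, which had -6.57 on the Cy5 array and 0.06 on the Cy3 array of 8-week replicate 1.

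**Figure D2:**
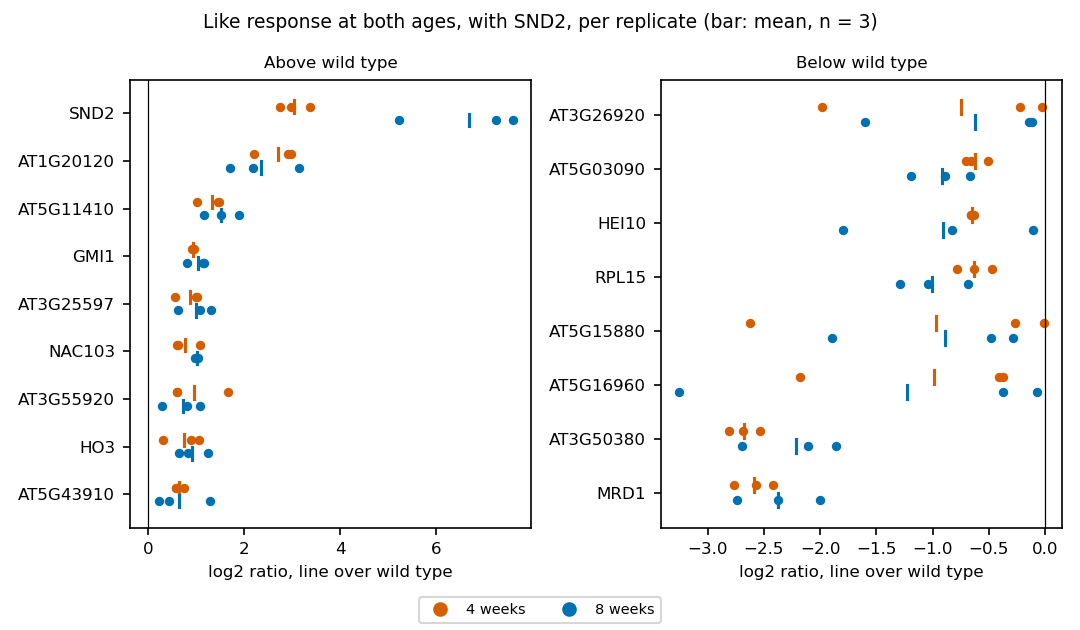
Log2 ratio of the line over wild type in each replicate (points) and the mean of 3 (bars) for the 16 named genes with a like response and for SND2, at 4 weeks and 8 weeks. The ages overlap for AT1G20120, MRD1 and GMI1, whereas for SND2 all 8-week points lie above all 4-week points.

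Of the probes higher at 8 weeks without overlap, 59 have a name, 28 of them by the annotation, which is 0.376% of the annotated probes. The other 31 are known through the study's 8-week list, so their direction was set in part by that choice. Their 4-week values were not, except those of BIN4 and SND2, which are in the 4-week list too. Several of the 28 annotated probes are also in the 8-week list, AT4G15700, AT4G22470 and IRX15 among them. For these as well the 8-week side was set by that choice. AT2G33793 had 0.45, 0.31 and 0.52 at 4 weeks and 1.68, 1.43 and 1.27 at 8 weeks. FDM4 (AT1G13790), of a family that acts in RNA-directed DNA methylation, had 0.59, 0.35 and 0.42 and then 1.13, 1.14 and 1.18. BIN4 (AT5G24630), a component of the plant topoisomerase VI complex needed for endoreduplication, had 0.78, 0.57 and 0.67 and then 1.43, 1.51 and 1.12. MEE66 (AT2G02240), an F-box protein gene, had 0.38, 0.53 and 0.16 and then 1.11, 1.12 and 1.34. These 4 were above wild type in every replicate at both ages and further above at 8 weeks, with age differences of 1.04 (0.65 to 1.42), 0.69 (0.38 to 1.01), 0.68 (0.30 to 1.06) and 0.83 (0.45 to 1.21). PLE (AT5G51600), which encodes a MAP65-type protein of the phragmoplast, showed the same order, with 0.57, 0.51 and 0.48 and then 0.99, 1.17 and 1.01, but its difference of 0.54 was under 1.5-fold.

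A second kind of gene was near wild type at 4 weeks and above it at 8 weeks. LTP5 (AT3G51600), a lipid transfer protein gene, had 0.13, -0.15 and 0.34 at 4 weeks and 0.86, 1.28 and 1.11 at 8 weeks, a difference of 0.98 (0.53 to 1.43). LCR68 (AT2G02130), a small cysteine-rich defensin-like protein, had 0.04, -0.19 and 0.02 and then 0.68, 0.64 and 0.63. DXPS1 (AT3G21500), a plastid gene of the 1-deoxyxylulose 5-phosphate synthase family of isoprenoid synthesis, had -0.31, -0.11 and 0.29 and then 0.76, 1.96 and 1.92, a difference of 1.59 (0.73 to 2.45). TPPH (AT4G39770), a trehalose-6-phosphate phosphatase gene, had -0.07, 0.09 and 0.00 and then 0.80, 0.51 and 0.59. MPL1 (AT5G14180), an aphid-induced lipase gene, had a mean of 0.13 ± 0.21 and then 1.38 ± 0.60, and RAP2.6 (AT1G43160), an ERF-type factor of stress and wound responses, -0.21 ± 0.36 and then 1.06 ± 0.71 (SD, n = 3). None of these genes differed in limma over all probes (adjusted p of 0.9999 or more).

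CC-type glutaredoxins, small redox proteins of which several respond to nitrogen supply, included a group of neighbouring genes. Of 12 genes in the list 9 were measured, their median age difference was 0.36 against -0.02 over all probes, and 4 of the 9 were higher at 8 weeks without overlap (background 0.337%). All 4 are in the study's 8-week list, and 3 of them have a name only through it, so nothing is read from their count. Over the 6 genes named by the annotation the median was 0.20. The 4 lie in one cluster on chromosome 4. AT4G15700 had 0.04, -0.37 and -0.48 at 4 weeks and 0.66, 0.61 and 1.04 at 8 weeks. AT4G15690 had -0.07, -0.25 and -0.54 and then 0.54, 0.46 and 1.21, so that it changed side in every replicate. AT4G15660 had 0.38, -0.63 and -0.38 and then 1.03, 0.41 and 1.87, and AT4G15670 had 0.09, -0.28 and 0.04 and then 0.61, 0.31 and 1.01. The fifth measured member of the cluster, AT4G15680, had -0.46, -0.57 and 0.45 and then -0.74, -0.07 and 0.06, a difference of -0.06. Outside the cluster the differences ranged from -0.41 for AT3G62930 to 0.36 for AT5G18600. The genes of the cluster are close in sequence, so their probes may share signal, and AT4G15700 is the only one of the 4 named by the annotation. In limma 0 of the 9 passed.

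Genes of nitrate assimilation and signalling stood higher at 8 weeks on the median. Of 24 listed, 9 were measured, 8 had a positive age difference, and the median difference was 0.77. NIA2 (AT1G37130), a nitrate reductase gene, had 0.35, -0.13 and -0.55 at 4 weeks and 0.49, 0.47 and 1.02 at 8 weeks. NIR1 (AT2G15620), the nitrite reductase gene, had 0.05, -0.06 and -0.77 and then 0.58, 0.21 and 1.08. AT1G25550, a GARP-type factor gene of the nitrate response, had 0.11, -0.58 and -0.30 and then 0.86, 0.15 and 1.34. These 3 did not overlap between ages (background 0.337%), but all 3 are in the 8-week list, so nothing is read from their count. LBD37 (AT5G67420), a repressor of nitrogen-responsive genes, and BT5 (AT4G37610), of the BTB and TAZ domain family, overlapped, with differences of 0.99 and 1.40, and the other nitrate reductase gene, NIA1 (AT1G77760), was on the other side at -0.38, with 0.15, -0.08 and -1.33 and then -0.90, -0.35 and -1.16. All 9 are in the study's lists, BT2 (AT3G48360) in that of 4 weeks and the others in that of 8 weeks, and AT1G68670 (0.63) is the one also named by the annotation, so the direction of the list was set in part by that choice. In limma 0 of the 9 passed. An unadjusted p under 0.05 was reached by 4, against 1.6% of all probes, but nothing is read from this count of genes already in the study's lists.

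Genes for lipid transfer proteins and the EARLI1 family of proline-rich cell wall proteins were measured for 5 of 12 members, and all 5 had a positive age difference, with a median of 0.98. All 5 are in the 8-week list, which set their 8-week side. AT2G18370, a lipid transfer protein gene outside this group and in neither study list, went the other way with a difference of -1.29. Besides LTP5, AT4G22470 had -0.21, -0.77 and 0.38 at 4 weeks and 0.68, 0.50 and 1.21 at 8 weeks. AZI1 (AT4G12470), which acts in systemic defence priming, had 0.47, 0.60 and 0.25 and then 1.88, 0.67 and 0.86. These 3 did not overlap (background 0.337%), but as all 3 were chosen at 8 weeks nothing is read from their count. EARLI1 (AT4G12480) and AT4G12500 overlapped, because 8-week replicate 2 stood at -0.22 and -0.45. Genes of salicylic acid and senescence showed a median difference of 0.80 over 6 measured of 23. All 6 are named only through the 8-week list, so the median is not independent of that choice. The ankyrin gene ACD6 (AT4G14400) did not overlap, at 0.06, -0.88 and -0.14 and then 0.25, 0.24 and 1.31, whereas BGL2 (AT3G57260), a pathogenesis-related glucanase gene, had a difference of 0.95 with overlap and SAG12 (AT5G45890), a protease gene of senescence, one of -1.08. In limma 0 genes of these lists passed.

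**Figure D3:**
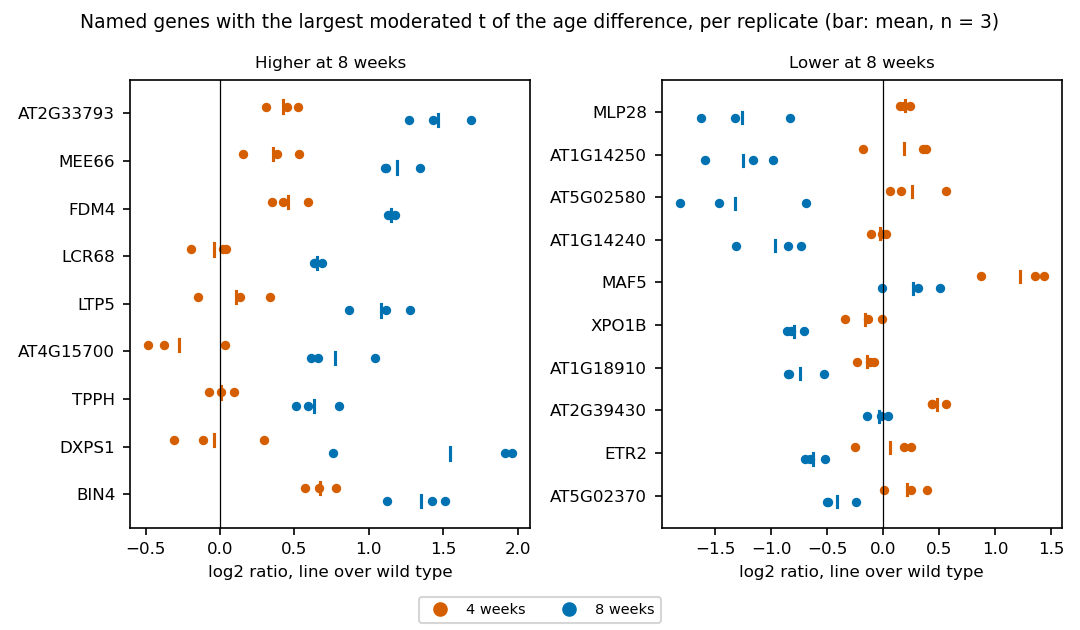
Log2 ratio of the line over wild type in each replicate (points) and the mean of 3 (bars) at 4 and 8 weeks for the 9 named genes other than SND2 with the largest positive and the 10 with the largest negative moderated t of the age difference. For LTP5 and FDM4 the 8-week points lie to the right of all 4-week points, and for MLP28 and MAF5 to the left.

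The genes of secondary wall cellulose stood near wild type on the median at 4 weeks in the line. For secondary wall cellulose, 6 of 8 genes were measured, and the median ratio was 0.06 at 4 weeks and 0.74 at 8 weeks, with a median difference of 0.65. CESA4 (AT5G44030) had -0.16, 0.12 and 0.08 at 4 weeks and 0.56, 0.12 and 1.95 at 8 weeks, and its ages were apart by less than the rounding. IRX3 (AT5G17420, CESA7) had -0.06, 0.45 and -0.16 and then 0.70, 0.09 and 1.59, and IRX1 (AT4G18780, CESA8) -0.17, 0.37 and 0.15 and then 0.64, 0.00 and 1.48. At 8 weeks replicate 3 was the highest and replicate 2 the lowest for each, and replicate 2 lay no higher than the highest 4-week replicate for the latter 2. IRX6 (AT5G15630), a COBRA-like gene of cellulose deposition, and CTL2 (AT3G16920), a chitinase-like gene, had differences of 0.52 and 0.73. AT5G06700, the TBR gene of wall acetylation and the one member named by the annotation, had a difference of 0.02. Without 8-week replicate 3 the median difference of the list was 0.23. The 5 others had been listed by the study as changed at 8 weeks, so that the 4-week values are the ones free of that choice, and those were between -0.17 and 0.57.

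Xylan and lignin genes differed by how they were named. The median difference was 0.50 for 7 of 28 genes of xylan and mannan and 0.47 for 6 of 23 genes of lignin, but 0.11 for the 4 and 0.092 for the 3 that the annotation names, and the others are named only through the 8-week list. Without 8-week replicate 3 the medians of the whole lists were 0.13 and 0.23. IRX15 (AT3G50220), a gene of xylan chain length that is also in the 8-week list, had 0.00, 0.03 and -0.02 at 4 weeks and 0.69, 0.14 and 1.08 at 8 weeks, without overlap. Its homologue IRX15-L (AT5G67210) had -0.21, 0.32 and 0.28 and then 0.31, 0.00 and 0.54, a difference of 0.16. CSLA03 (AT1G23480), a glucomannan synthase gene, was on the other side, at -0.05, 0.04 and 0.01 and then -2.19, -0.14 and -0.16, which rests on replicate 1 with -3.91 on its Cy3 array and -0.47 on its Cy5 array. In lignin, the laccase genes of polymerization IRX12 (AT2G38080, LAC4) and LAC17 (AT5G60020) had -0.01, 0.52 and -0.12 and then 0.96, 0.44 and 1.06, and 0.00, 0.07 and 0.17 and then 0.46, 0.28 and 1.28. PER64 (AT5G42180), a peroxidase gene, had a difference of 0.68. The monomer enzyme genes HCT (AT5G48930) and CCR2 (AT1G80820) had differences of 0.03 and 0.34, and for CCR2 that rests on 4-week replicate 2 at -1.45. AtMYB103 (AT1G63910), a MYB factor of fibre walls and the only gene of the wood transcription factor list with a named probe, had 0.07, 0.18 and -0.04 and then 0.70, 0.30 and 1.62, without overlap. The fibre markers FLA11 (AT5G03170) and FLA12 (AT5G60490), both fasciclin-like arabinogalactan genes, had differences of 0.77 and 0.90 and stood at 0.01 and 0.09 in 8-week replicate 2. These 3 genes and the laccase and PER64 genes are also named only through the 8-week list. No listed marker of vessels, cambium, epidermis or flower had a named probe, so a shift in the make-up of the tissue was not tested, and in whole stems fewer cells of a type and less RNA per cell cannot be told apart.

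The study also lists genes regulated by SND1 overexpression that changed in SND2-OV(A) at 8 weeks, with the direction in SND2-OV(A), and genes co-expressed with SND2. Among 33 measured SND1-regulated genes listed as higher in SND2-OV(A), the median ratio was 0.06 at 4 weeks and 0.66 at 8 weeks, all 33 had a positive difference and 6 did not overlap (background 0.337%). Among 9 listed as lower in SND2-OV(A), the medians were 0.13 and -0.76, all 9 had a negative difference and 1 did not overlap (background 0.825%). Among 16 co-expressed genes the medians were 0.09 and 0.69, with a median difference of 0.59. For 10 of these 16 the name came only through the 8-week list, and over the 6 named by the annotation the median difference was 0.22. The study chose both SND1 lists, and their directions, on the 8-week samples. The counts of positive and negative differences, and of genes without overlap, are therefore not independent evidence. Without 8-week replicate 3 the median differences were 0.31, -0.52 and 0.27. Among the SND1-regulated genes listed as higher that did not reach the 8-week list, the differences ran from 0.24 for AT1G07120 to 0.85 for AT2G05540. Tubulins, all 8 named by the annotation, had a median difference of 0.22, led by TUA2 (AT1G50010) at 0.48 and with TUA3 (AT5G19770) lowest at -0.11. Wall expansion genes, 9 of 28 measured, had a median of 0.32, from -0.81 for the extensin gene EXT3 (AT1G21310) to 0.97 for the expansin gene EXPA15 (AT2G03090). In limma 0 genes of these lists passed.

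**Figure D4:**
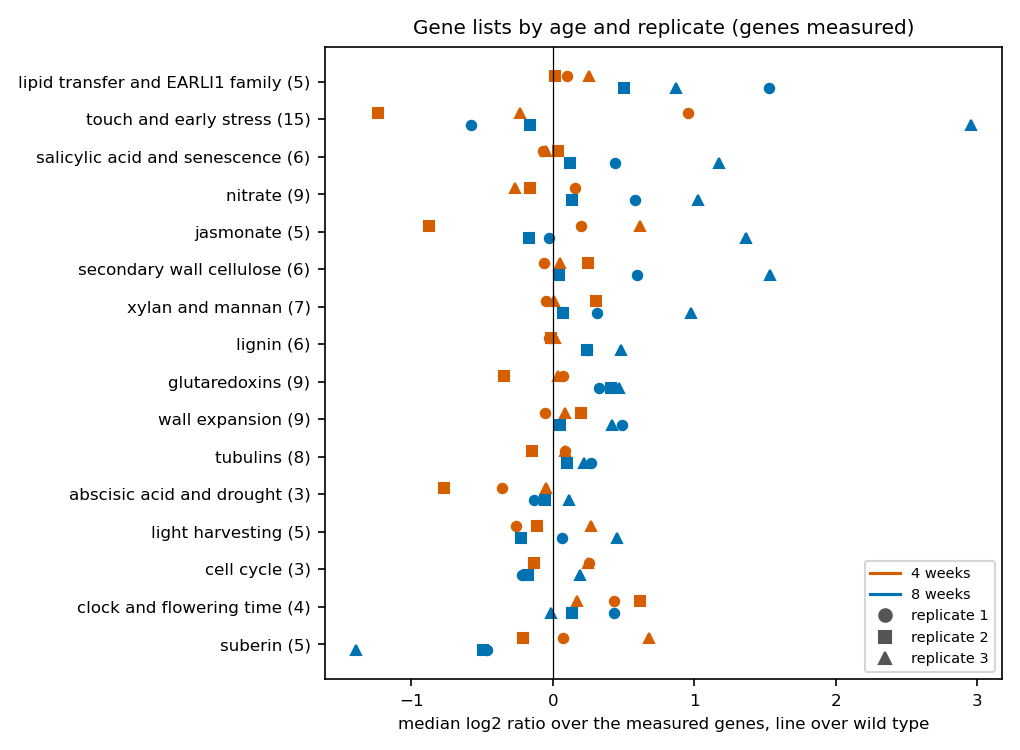
Median log2 ratio of the line over wild type over the measured genes of each list (number in brackets), for each replicate (marker shape) at 4 and 8 weeks (colour). For the touch and early stress list the replicates span from -1.24 to 2.96, with no separation of the ages, and for the suberin list all 8-week medians lie below all 4-week medians.

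Touch and early stress genes, which respond within minutes to handling and wounding, had a large median difference of 0.97, but their replicates did not separate by age. Of the 15 measured genes of 38, 14 were above wild type in 4-week replicate 1, 15 were below in replicate 2 and 10 were below in replicate 3. At 8 weeks 13 were below in replicate 1, 9 were below in replicate 2 and 14 were above in replicate 3. The medians of the list were 0.95, -1.24 and -0.24 at 4 weeks and -0.58, -0.17 and 2.96 at 8 weeks. Of the 15 genes, 13 are in the study's 8-week list and 3 are named by the annotation. The median difference is therefore not independent of that choice. TCH4 (AT5G57560), a touch-induced xyloglucan endotransglucosylase gene, had 1.12, -2.01 and 0.49 and then 0.36, -1.63 and 3.82. CML37 (AT5G42380), a calmodulin-like gene named by the annotation, had 0.82, -2.38 and 0.40 and then -0.50, -0.82 and 3.08. ORA47 (AT1G74930), an ERF-type factor gene also named by the annotation, had 1.40, -2.13 and -1.88 and then -1.65, 0.27 and 3.74. ERF13 (AT2G44840) was the exception, with negative ratios in all replicates and a difference of -0.81. Replicates of one age thus differed among themselves by more than the ages did. With all 8 arrays and a dye term the median difference was 0.30, and without 8-week replicate 3 it was -0.28. Jasmonate genes had a like scatter, with JAZ7 (AT2G34600), a repressor gene, at 1.43, -3.96 and 0.62 and then -0.18, -0.30 and 2.69, and a median difference of 0.76 over 5 of 28 genes that was -0.29 without 4-week replicate 2. VSP1 (AT5G24780), a vegetative storage protein gene induced by jasmonate, was on the other side, at 0.20, -0.88 and 1.21 and then -1.20, -0.17 and -2.37. JAZ7, VSP1 and CYP94B3 (AT3G48520) are in the 8-week list, and LOX4 (AT1G72520) is in that of 4 weeks. JMT (AT1G19640), the one jasmonate gene named by the annotation, had a difference of -0.03.

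**Figure D5:**
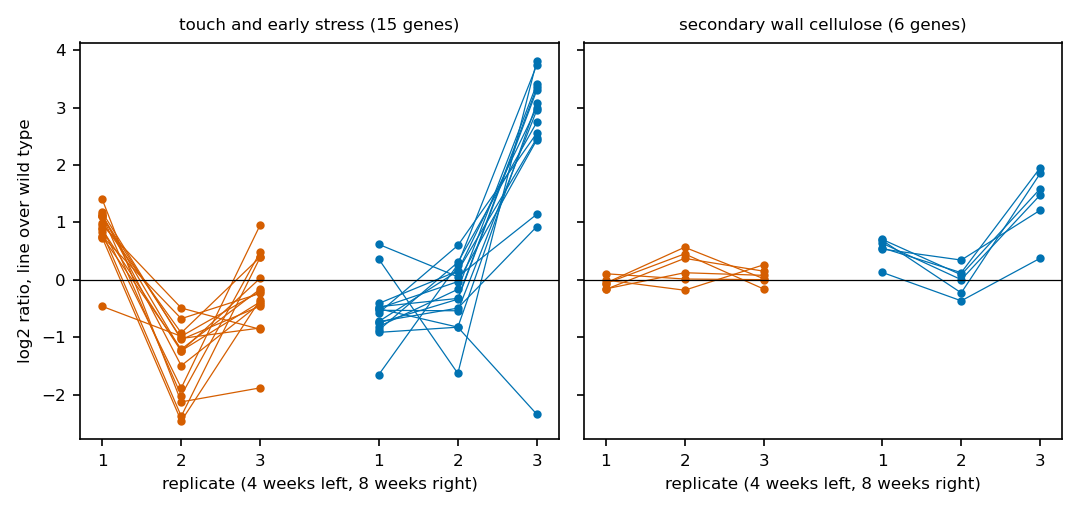
Log2 ratio of the line over wild type for each gene (joined points) in replicates 1, 2 and 3 at 4 weeks (left, orange) and 8 weeks (right, blue), for 15 touch and early stress genes and 6 genes of secondary wall cellulose. The touch genes are high in 4-week replicate 1 and 8-week replicate 3 and low in 4-week replicate 2, while the cellulose genes lie at 0.57 or lower in the 4-week replicates and reach their highest values in 8-week replicate 3.

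Of the probes lower at 8 weeks without overlap, 45 have a name, 34 of them by the annotation, which is 0.457% of the annotated probes. The other 11 are known only through the study's lists. Of the genes described next, MLP28, AT1G14250, AT1G14240, XPO1B, AT1G18910, ETR2 and PELPK1 are in the 8-week list. Their 8-week side was set by that choice, whereas AT5G02580 and AT5G02370 are in neither list. MLP28 (AT1G70830), of the major latex protein family, had the lowest moderated t among named genes, with 0.24, 0.15 and 0.18 at 4 weeks and -1.63, -0.84 and -1.32 at 8 weeks, a difference of -1.45 (-1.97 to -0.93). The adjacent apyrase-type genes AT1G14250 and AT1G14240 had 0.35, -0.18 and 0.38 and then -1.17, -0.98 and -1.59, and 0.03, -0.11 and -0.01 and then -0.73, -0.85 and -1.31. As close relatives they may share signal. AT5G02580 had 0.06, 0.56 and 0.16 and then -1.46, -0.69 and -1.81, a difference of -1.58 (-2.33 to -0.84), and is named by the annotation. XPO1B (AT3G03110), an exportin gene of nuclear export, had -0.34, -0.14 and -0.01 and then -0.82, -0.71 and -0.86. AT1G18910, a RING protein gene of the BRUTUS-like family of iron regulation, had -0.12, -0.24 and -0.09 and then -0.84, -0.53 and -0.85. ETR2 (AT3G23150), an ethylene receptor gene, had -0.25, 0.18 and 0.24 and then -0.70, -0.52 and -0.66. AT5G02370, a kinesin-type motor gene, had 0.01, 0.25 and 0.39 and then -0.51, -0.49 and -0.24. PELPK1 (AT5G09530), a hydroxyproline-rich wall protein gene, had the largest difference of a named gene outside 3 that rest on the wide array, -1.66 (-2.85 to -0.48), with -0.22, -0.36 and 0.68 and then -0.95, -1.29 and -2.64.

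A smaller number of genes were above wild type at 4 weeks and near it at 8 weeks. MAF5 (AT5G65080), a MADS-box gene of the FLC clade of flowering repressors, had 0.88, 1.35 and 1.43 at 4 weeks and 0.51, -0.01 and 0.31 at 8 weeks, a difference of -0.95 (-1.47 to -0.43). The adjacent gene MAF4 (AT5G65070) had 0.77, 0.78 and 0.39 and then 0.36, 0.42 and -0.34, with overlap and a difference of -0.50. AT5G64910 had 0.99, 0.97 and 0.35 and then -0.15, -0.04 and 0.16. FAR6 (AT3G56700), a fatty acyl-CoA reductase gene, had 0.40, 1.81 and 0.65 and then -0.71, 0.01 and 0.11. All 4 are named through the 4-week list, so their 4-week side was set by that choice. AT2G39430, a dirigent protein gene named by the annotation, had the same order, at 0.43, 0.44 and 0.56 and then -0.02, -0.15 and 0.05, and its difference of -0.52 was under 1.5-fold. The other measured genes of the clock and flowering list, GI (AT1G22770) and RVE1 (AT5G17300), had differences of -0.06 and 0.57.

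Genes of suberin, the lipid and phenolic polymer of periderm and endodermis, were a group noticed among the lower probes, so their values are a description of genes chosen after they were seen. Of 18 such genes 5 were measured, all 5 had a negative difference, with a median of -0.90, and 4 did not overlap (background 0.825%). RWP1, AT5G44550 and FACT are named only through the 8-week list. RWP1 (AT5G41040), the feruloyl transferase of suberin aromatics, had -0.08, -0.40 and 0.04 at 4 weeks and -0.81, -0.50 and -1.84 at 8 weeks. AT2G23540, a GDSL-type lipase gene, had 0.05, -0.01 and 1.03 and then -0.47, -0.49 and -1.01. AT4G24140, an alpha/beta hydrolase gene, had 0.22, -0.21 and 0.68 and then -0.38, -0.50 and -0.77, and AT5G44550, of a family of membrane proteins related to Casparian strip proteins, had 0.07, -0.04 and 1.42 and then -0.29, -0.14 and -1.57. FACT (AT5G63560), a caffeoyl transferase of fatty alcohols, overlapped, at 0.11, -0.42 and -0.16 and then -0.68, -0.10 and -1.39. Replicate 3 was the highest at 4 weeks for 4 of these 5 and the lowest at 8 weeks for all. The median difference was -0.67 without 8-week replicate 3 and the same without 4-week replicate 3.

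Opposite responses, with all 3 ratios on one side of 0 at 4 weeks and all 3 on the other at 8 weeks and a difference of at least 1.5-fold, were seen for 23 probes that were first below and then above wild type (0.061% of all) and for 113 that were first above and then below (0.3%). All of these are also among the non-overlapping probes above. Named genes numbered 7 and 13. Among the 7, AT4G15690 had the largest difference, and the others were small on both sides. AT2G05540, a glycine-rich protein gene, had means of -0.33 and 0.52, AT5G64190 -0.34 and 0.51, AT2G41480, a peroxidase gene, -0.41 and 0.38, AT2G42360, a RING finger gene, -0.44 and 0.31, AT1G49840 -0.37 and 0.24, and AT3G12190 -0.51 and 0.09. Among the 13 are MLP28 and AT5G02580. AT2G18370, a lipid transfer protein gene, had 0.03, 0.05 and 0.32 and then -0.89, -0.46 and -2.11, and AT4G15390, an acyltransferase gene of the BAHD family, had 0.39, 0.78 and 0.30 and then -0.31, -0.07 and -0.98. The differences of 3 of the 13 rest on the wide array. AT5G07430, a pectin methylesterase gene, AT4G39630 and AT2G38380, a peroxidase gene, had -9.59, -10.30 and -6.60 on the Cy5 array of 8-week replicate 1 against -0.39, 0.04 and -0.06 on its Cy3 array. With the Cy3 array alone their differences were -0.89, -0.26 and -0.82 in place of -2.40, -2.00 and -1.90, and AT4G39630 left the class. Of the 7 and the 13 named genes, 6 and 10 stayed in their class when replicate 1 was read from its Cy3 array.

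The remaining lists had medians near 0 or few measured genes. Light harvesting genes, 5 of 30 measured, had a median difference of 0.10, from -0.75 for LHCB4.3 (AT2G40100), which did not overlap, to 1.05 for LHCB2.3 (AT3G27690). Cell cycle genes, 3 of 27 measured, had a median of -0.19, with TSO2 (AT3G27060), a ribonucleotide reductase subunit gene, at -0.56 and PLE at 0.54. Abscisic acid and drought genes, 3 of 32 measured, had a median of 0.13, and of these NCED3 (AT3G14440), the gene for the rate-limiting dioxygenase of abscisic acid synthesis, stood at -0.64, -2.27 and -0.36 at 4 weeks and -0.47, 0.02 and 0.11 at 8 weeks. LHCB4.3, LHCB2.3, TSO2 and PLE are in the study's 8-week list, and NCED3 is in that of 4 weeks. Their sides at those ages were set by that choice. Over the genes named by the annotation the light harvesting median was 0.013. The phloem sugar exporter gene SWEET11 (AT3G48740), the one measured phloem marker, had a difference of 0.63, with 0.36, 0.14 and -1.07 and then 0.66, 0.96 and -0.28. In limma 0 genes of these lists passed.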

How the data were processed

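RNA of SND2-OV(A) and wild type stems was hybridized on 8 2-colour arrays. The deposited values are log2 ratios that the authors read from scans in GenePix Pro and normalized in R with limma, by a procedure the study cites from earlier work and whose steps are not given in the sources used here. Direction and scale were checked against the study's lists: all 45 probes of the 4-week list and 188 of 223 of the 8-week list lay within 0.001 of the listed log2 value, and every one had its sign. Each array's median was left as deposited. Names came from the array annotation, updated through RefSeq (TAIR10.1), and from the probe numbers of the study's lists, for 7418 genes. Another 30057 probes are unnamed, and 3 with conflicting names are not described. No intensity was available, so signal over background is unknown, and the number of arrays limits the precision. The study's own fold changes and p-values entered no fit. They were used in the check of direction and scale and, through the study's lists, for names and list directions.

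The dye-swapped pair was averaged, and 6 ratios were fitted in limma 3.58.1 (R 4.3.3; lmFit, contrasts.fit, eBayes) with Benjamini-Hochberg adjustment over all probes. Thresholds were an adjusted p under 0.05 and 1.5-fold. P-values measure the spread between pools of plants grown together. The fit was tested on simulated data. Alternatives covered the replicate block, dye handling, centring, scaling, spread estimates, thresholds and left-out replicates. Genes named in the text are those with the 10 largest moderated t in each direction, opposite-sign and like-response genes, SND2 and the leading members of gene lists; others, such as the suberin genes, were added after their values were seen. The members and lists were chosen with earlier results of these data known. Tables used Python 3.11.15, pandas 2.3.3 and numpy 2.4.6. Promoter motifs were not analysed here.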

Additional observations from a re-analysis of the deposited data

Results flagged for a closer look

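Genes with all 3 ratios on one side of wild type at 4 weeks and all 3 on the other side at 8 weeks were listed for a closer look. As each limma test of a difference gave an adjusted p near 1, these opposite directions rest on the order of the replicates, and the background was 0.061% of probes in one direction and 0.3% in the other. The age differences of genes first above and then below wild type were -2.40 for AT5G07430, -2.00 for AT4G39630, -1.90 for AT2G38380, -1.58 for AT5G02580, -1.45 for MLP28, -1.29 for AT2G18370, -0.94 for AT4G15390, -0.93 for AT1G09400, -0.92 for AT3G27330, -0.87 for AT4G14103, -0.76 for AT5G49100, -0.69 for AT5G53320 and -0.63 for AT5G02370. Those of genes first below and then above were 1.02 for AT4G15690, 0.85 for AT2G05540, 0.84 for AT5G64190, 0.80 for AT2G41480, 0.76 for AT2G42360, 0.61 for AT1G49840 and 0.60 for AT3G12190. AT1G09400, AT3G27330 and AT5G49100 owed their 8-week mean to replicate 2, at -1.65, -1.68 and -1.32, and AT4G14103 its 4-week mean to replicate 3, at 1.62.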

How the results depend on the processing

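No probe was called under the replicate block, the dye term on all 8 arrays, centring, scaling, array weights, a left-out replicate or another threshold, except that 603 probes passed an unadjusted p under 0.05. With the replicate number as a block 843 had an unadjusted p under 0.05 and 0 were called. That count was 0 with a trended, robust spread and 1919 with array weights. Deviations of same-numbered replicates from their age means correlated between ages at -0.02, 0.12 and 0.16. Those of replicates with other numbers correlated at -0.21 to 0.08. The number also stands for the dye orientation. The count of probes higher at 8 weeks was 287 with the replicate block (every paired difference positive), 203 with centred arrays, 58 with named probes averaged per gene, 27 at 2-fold, and 186 to 1059 with a replicate left out. For lower probes these were 742 with the block, 45 per gene, 110 at 2-fold and 281 to 1101 with a replicate left out, and the counts of 1059 and 1101 came without 4-week replicates 3 and 2. Probes first below and then above were 47 with centred and 42 with scaled arrays, 7 per gene, 1 at 2-fold and 36 to 115 with a replicate left out. Those first above and then below were 13 per gene, 37 at 2-fold and 113 to 526. Like responses were 5 at 2-fold and 17 to 76. Medians of lists with annotated genes alone were 0.021 for cellulose, 0.11 for xylan and 0.092 for lignin, and that of glutaredoxins was 0.54 with the Cy3 array alone. With a replicate left out they ran from 0.13 to 0.74 for xylan, 0.23 to 0.58 for lignin, -0.038 to 0.52 for wall expansion, -0.29 to 1.06 for jasmonate and 0.22 to 0.61 for glutaredoxins. Of 137 genes, 108 kept the sign of their difference in all 13 alternatives and 29 did not, and 0 passed the test in any.

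The dye term turned JMT to 0.16, AT1G80170 to 0.033, AT3G26920 to -0.26 and AT5G43910 to -0.028. The Cy3 array alone turned JMT to 0.28, AT5G16960 to 1.08 and AT5G43910 to -0.045, and the Cy5 array alone AT5G06700 to -0.0001, KIN1 to -0.19 and HCT to -0.035. Centring turned JMT to 0.014, and scaling AT1G20120 to 0.027, MRD1 to -0.040, AT3G26920 to -0.052, AT5G15880 to -0.064 and KIN1 to -0.039. With a replicate left out the genes whose sign turned ranged as follows: AT1G07120 -0.097 to 0.55, AT1G80170 -0.67 to 0.21, AT2G30020 -0.030 to 1.78, AT3G25597 -0.012 to 0.33, AT3G26920 -0.49 to 0.62, AT3G55920 -0.40 to 0.12, AT5G06700 -0.14 to 0.23, AT5G15880 -0.75 to 0.59, AT5G16960 -0.84 to 0.77, AT5G43910 -0.30 to 0.23, AT5G66390 -0.027 to 0.17, BAP1 -0.32 to 1.79, CCR2 -0.12 to 0.60, EXLA2 -0.026 to 0.78. The others were GI -0.20 to 0.083, HCT -0.14 to 0.15, HEI10 -0.66 to 0.18, HO3 -0.065 to 0.30, IRX15-L -0.014 to 0.30, JAZ7 -0.29 to 2.41, JMT -0.38 to 0.28, KIN1 -0.32 to 0.37, LOX4 -0.45 to 1.37, NUDT4 -0.035 to 1.83, TCH4 -0.50 to 2.23, TUA3 -0.29 to 0.12 and XTH18 -0.33 to 1.09. The cause was not tested. With 3 ratios per age the median interval was 1.38-fold on either side, and the signal over background of the probes is unknown.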
